A study of Homo sapiens with 8 samples.

Results

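Interleukins and colony-stimulating factors are secreted proteins through which cells signal to leukocytes and to each other. The 10 genes described here were taken by symbol: the interleukin genes IL1A, IL1B, IL6, IL11 and IL32, the interleukin receptor gene IL7R, the interleukin-6 family cytokine gene LIF, and the colony-stimulating factor genes CSF1, CSF2 and CSF3. They are 10 of the 58735 genes in the deposited tables, and 9 of them, all but CSF3, had enough reads to be tested among 16528 genes. The study sequenced total RNA of U2OS cells, an established human osteosarcoma line, to ask whether WSB2 shapes the expression of NF-κB target genes. The stable lines were made with lentiviral vectors and selected with puromycin. For the control cells of these libraries the study names a control shRNA and also writes WT. The supplementary figure it cites for these cells describes an empty vector. They are labelled shControl, and knockdown (KD) cells carried an shRNA against WSB2. Which WSB2 shRNA was used and the dose of TNF-α are not given in the sources used here. Each was left unstimulated or was given TNF-α for 5 h, which makes 4 groups of 2 libraries. Nothing says that the libraries of a group came from separate cultures, so P-values measure only the spread between these libraries, which may be technical.

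Many of these genes are textbook targets of the transcription factor NF-κB, which TNF-α activates by release from its inhibitor. WSB2 is a substrate receptor of a ubiquitin ligase, and the study's question was whether it limits NF-κB through the subunit RelA. Their messengers are often short-lived, because AU-rich elements in the 3′ untranslated region (3′ UTR) recruit proteins that lead to decay. In bone-derived cells, IL-6 family cytokines and colony-stimulating factors are known for acting on bone-forming and bone-resorbing cells.

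Values are FPKM, fragments per kilobase of exon scaled to a library size adjusted by a size factor, which allows levels of different genes to be compared per length. Differences are on the scale of log2(FPKM + 1) and were tested with limma over all 16528 genes with Benjamini-Hochberg adjustment, a gene being called at an adjusted p under 0.05. On this scale the difference of a gene below about 1 FPKM is smaller than the log2 of its ratio. The libraries held between 15601098 and 18677023 reads. WSB2 itself was at 27.7 and 28 FPKM in unstimulated control cells and at 8.38 and 8.52 FPKM in KD cells without stimulation. With TNF-α it stood at 25.0 and 25.3 FPKM in control cells and 9.0 and 9.18 FPKM in KD cells. The difference was -1.61 ± 0.07 without TNF-α (SE, adjusted p = 0.000119, limma) and -1.37 ± 0.07 with it (adjusted p = 0.00113, and 0.0519 without KD replicate 2 with TNF-α). All 4 KD libraries lay below all 4 control libraries, as labelled.

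Of 9 osteoblast-lineage markers, 6 passed the filter. COL1A1 lay between 172 and 269 FPKM and SPARC between 216 and 293 FPKM in the 8 libraries, whereas IBSP had no read in any library, SP7 had 1 read and BGLAP had 25 reads over all of them. Of 10 leukocyte markers, 1 passed the filter, ITGAM, with at most 0.467 FPKM, and their summed level was between 0.174 and 0.554 FPKM in all libraries. PTPRC, which marks all leukocytes, had 36 reads over the 8 libraries and CD14 had 12. The summed level of 4 endothelial markers was at most 0.445 FPKM.

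The libraries of unstimulated KD cells stood apart from the other 6. Mitochondrial genes took 4.10% and 4.42% of their reads, against 1.11% to 2.03% elsewhere. Their read-weighted GC content was 49.9% and 49.4%, against 52.5% to 53.2%, and 26225 and 26397 genes had a read, against 22072 to 22957. The adjusted library size behind the deposited FPKM was 1.21 times the total reads in both, against 0.925 to 1.03 times elsewhere. Both comparisons that use these libraries, and the interaction, are given below also after correcting for GC content and for gene length. The correction depends on GC content and length and takes no account of level. A gene below about 1 FPKM, whose differences are small on the scale used, is moved as far as an abundant one. Corrected values and calls of IL1A, IL1B and IL6 therefore cannot be read as changes of their ratios.

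TNF-α raised most of the genes with a measurable level. In unstimulated control cells LIF was the most abundant, followed by IL11, IL32 and IL7R, whose ranges overlapped between neighbours, then CSF1 and CSF2. In unstimulated KD cells IL7R, at a mean of 19.9 FPKM, and LIF, at 19.0 FPKM, overlapped at the top, followed by IL11, then CSF1 and IL32, which overlapped, and CSF2. After TNF-α, CSF2 and IL32 led in control cells with overlapping ranges, ahead of LIF, IL11, and CSF1 and IL7R, which again overlapped. In TNF-α-stimulated KD cells the order was CSF2, LIF, IL32, IL11, CSF1, IL7R, IL1A, IL1B and IL6, with no overlap between neighbours. The 10 genes together took 297 and 301 CPM (reads scaled to library size) in unstimulated control cells, 329 and 329 in unstimulated KD cells, 892 and 912 in TNF-α-stimulated control cells and 1019 and 1028 in TNF-α-stimulated KD cells. Their summed FPKM was 79.4 and 71.7 in unstimulated control cells and 62.5 and 61.1 in unstimulated KD cells, the other way round from the CPM. The CPM is scaled to total reads, whereas the FPKM is scaled to gene length and to the adjusted library size. In bulk RNA, a change in the share of cells that transcribe a gene and a change in RNA per cell cannot be told apart.

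**Figure D1:**
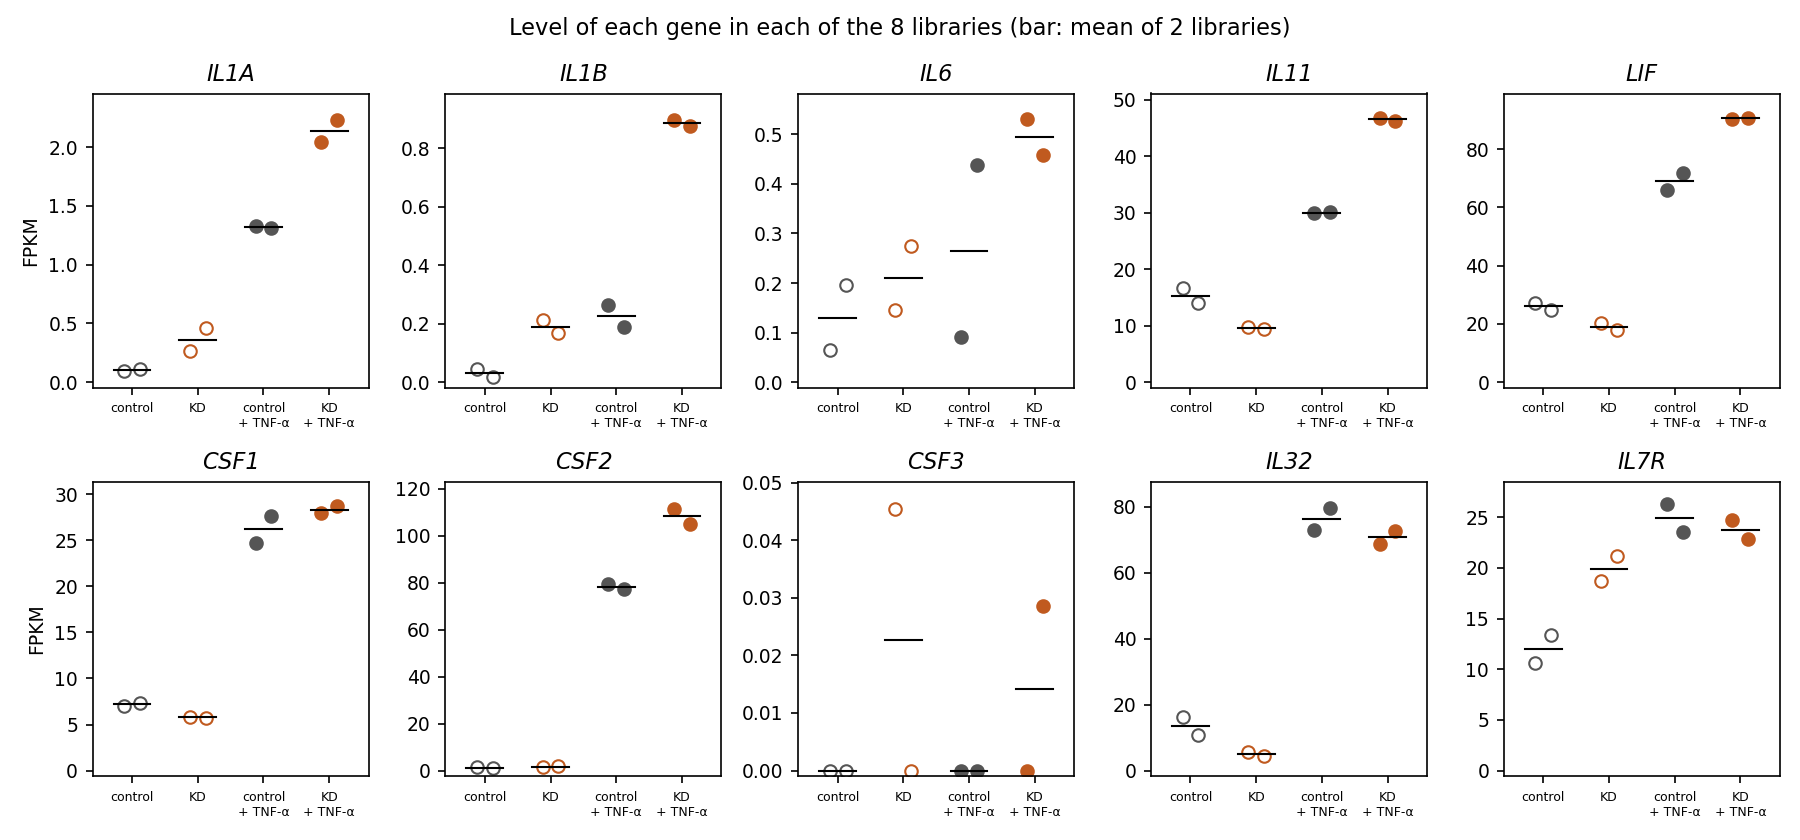
FPKM of each of the 10 genes (vertical axis, linear, its own scale for each gene) in the 4 groups (horizontal axis). Each point is 1 library, open without and filled with TNF-α, grey for control and orange for KD cells, and the bar is the mean of 2 libraries. CSF2 rose from at most 1.84 FPKM to at least 77.1 FPKM, whereas IL6 stayed at or below 0.531 FPKM in every library.

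Among the colony-stimulating factors, CSF2 (ENSG00000164400, chr5:132073790-132076170, plus strand, GRCh38), which encodes the granulocyte-macrophage factor GM-CSF, had the widest range. It was at 1.36 and 1.17 FPKM in unstimulated control cells and 1.47 and 1.84 FPKM in unstimulated KD cells. With TNF-α it stood at 79.3 and 77.1 FPKM in control cells and 111 and 105 FPKM in KD cells. The ratio of means was 61.8 in control cells, with a 95% counting interval (exact Clopper-Pearson, counting error only) of 43.9 to 91.1, and 65.2 in KD cells, with an interval of 49.6 to 88.1. Replicates differed by more than counting error, so these intervals are too narrow for genes with many reads. The unstimulated level rests on 32 reads in the control libraries and 51 in the KD libraries, against 1929 and 2821 after TNF-α. All 4 stimulated libraries lay far above all 4 unstimulated ones, and the KD libraries lay above the control libraries in both states. Over the 8 libraries, the genes with the pattern most like that of CSF2 were CCL2, C3 and PTX3, with Pearson correlations of 0.9995, 0.9984 and 0.9984 of log2(FPKM + 1).

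The 250 bases upstream of the CSF2 start are shown with those of IL32, IL6 and IL11, because these genes span the range from the largest to the smallest TNF-α ratios in control cells among the members with a promoter entry. In KD cells the smallest was that of IL7R, which is not shown. The sequences are from RefSeq, build GRCh38.p14, in which 7 of the 10 genes had an entry. They are printed 5′ to 3′ on the strand of the gene, and capitals mark matches on either strand to GGGANNNNCC, a κB-like pattern, or to TGANTCA, the pattern of AP-1 factors. Both patterns were chosen after these sequences had been seen. The windows are chr5:132073539-132073788 (plus strand) for CSF2, chr16:3065153-3065402 (plus strand) for IL32, chr7:22726950-22727199 (plus strand) for IL6 and chr19:55370464-55370713 (minus strand) for IL11. Starts are those of the RefSeq entries and can differ from the GENCODE genes used for the reads. The IL6 and IL7R windows lie inside the GENCODE genes. The IL32 window runs past the GENCODE start at chr16:3065297, so its matches lie inside the gene.
CSF2: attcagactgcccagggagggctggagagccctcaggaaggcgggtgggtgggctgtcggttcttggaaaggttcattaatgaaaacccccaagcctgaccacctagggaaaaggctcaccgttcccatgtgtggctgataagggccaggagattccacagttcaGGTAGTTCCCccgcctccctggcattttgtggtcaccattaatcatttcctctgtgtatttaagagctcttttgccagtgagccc
IL32: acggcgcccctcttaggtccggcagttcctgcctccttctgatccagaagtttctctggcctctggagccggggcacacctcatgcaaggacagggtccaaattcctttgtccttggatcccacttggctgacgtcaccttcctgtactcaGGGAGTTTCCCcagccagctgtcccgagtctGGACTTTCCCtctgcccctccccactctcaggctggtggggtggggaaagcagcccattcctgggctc
IL6: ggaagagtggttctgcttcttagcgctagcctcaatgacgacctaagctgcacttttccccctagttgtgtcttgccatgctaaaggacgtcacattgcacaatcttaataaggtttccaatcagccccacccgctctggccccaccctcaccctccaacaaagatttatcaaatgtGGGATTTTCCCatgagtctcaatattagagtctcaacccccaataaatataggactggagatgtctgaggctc
IL11: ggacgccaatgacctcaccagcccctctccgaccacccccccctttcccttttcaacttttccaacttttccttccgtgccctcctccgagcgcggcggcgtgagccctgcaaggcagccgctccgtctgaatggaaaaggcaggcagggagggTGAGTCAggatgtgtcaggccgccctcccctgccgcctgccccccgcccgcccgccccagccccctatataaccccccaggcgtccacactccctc
GGGANNNNCC was found in 22.6% of 35116 RefSeq promoter windows of this length and TGANTCA in 6.57%. The CSF2 window held 1 match to the κB-like pattern, 85 bases before the start. The IL32 window held 3 such matches, of which the pair at 99 and 98 bases overlap, and the other lay 68 bases before the start. The 2 matches of IL6, at 73 and 72 bases, overlap in the same way. IL7R held 1 match at 185 bases, and IL1A, IL1B and IL11 held none of these letters in their windows, nor did the other entry of IL32. AP-1 matches were found in the windows of IL1A and IL11, the latter 96 bases before the start. A match is a description of the sequence, and no binding was measured here.

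CSF1 (ENSG00000184371, chr1:109910242-109930992, plus strand) encodes the macrophage factor M-CSF. It was at 7.05 and 7.34 FPKM in unstimulated control cells, 5.86 and 5.68 FPKM in unstimulated KD cells, 24.8 and 27.7 FPKM in TNF-α-stimulated control cells and 28 and 28.7 FPKM in TNF-α-stimulated KD cells. Its ratio of means with TNF-α was 3.64 in control cells (counting interval 3.41 to 3.87) and 4.91 in KD cells (4.61 to 5.23). After TNF-α the ratio of KD to control cells was 1.08, the lowest KD library lying just above the highest control library. NFKBIA, IRAK2 and STAT5A were most like it, with correlations of 0.9971, 0.9969 and 0.996. NFKBIA encodes an inhibitor of NF-κB that NF-κB itself induces.

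CSF3 (ENSG00000108342, chr17:40015361-40017813, plus strand), the gene of the granulocyte factor G-CSF, had 3 reads over the 8 libraries. It had 2 reads in 1 unstimulated KD library, 1 read in 1 TNF-α-stimulated KD library and none in the other 6. A count of 0 allows up to 3 reads, which is 0.0700 to 0.0901 FPKM in the 6 libraries without a read, and no ratio is given.

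Of the interleukin-6 family, LIF (ENSG00000128342, chr22:30240447-30246851, minus strand), the gene of leukaemia inhibitory factor, was high in every library. It was at 27.2 and 24.8 FPKM in unstimulated control cells and 20.3 and 17.8 FPKM in unstimulated KD cells. With TNF-α it stood at 66.1 and 71.9 FPKM in control cells and 90.5 and 90.8 FPKM in KD cells. Its ratio with TNF-α was 2.66 in control cells (2.56 to 2.77) and 4.76 in KD cells (4.57 to 4.95). The KD libraries were thus the lowest of all without TNF-α and the highest of all with it. Antisense genes overlap LIF, LIF-AS1 with 40 reads and AC004264.1 with 231 reads over all libraries, against 4177 to 6204 reads of LIF in each stimulated library. FOSL1, CD82 and MAFF were most like it, with correlations of 0.9988, 0.9981 and 0.998. FOSL1 encodes a subunit of AP-1.

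IL11 (ENSG00000095752, chr19:55364389-55370463, minus strand) encodes interleukin-11, which signals through the same gp130 receptor chain as LIF and interleukin-6. It was at 16.6 and 14 FPKM in unstimulated control cells, 9.77 and 9.33 FPKM in unstimulated KD cells, 29.9 and 30.1 FPKM in TNF-α-stimulated control cells and 46.8 and 46.3 FPKM in TNF-α-stimulated KD cells. Like LIF it was lowest in unstimulated and highest in stimulated KD cells, with no overlap between groups. The ratio with TNF-α was 1.96 in control cells (1.84 to 2.11) and 4.88 in KD cells (4.55 to 5.23). PHC2, TOMM34 and PLK3 were most like it, with correlations of 0.9979, 0.9977 and 0.9969.

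IL6 (ENSG00000136244, chr7:22725884-22732002, plus strand), the gene of interleukin-6, was hardly detected. It had 2 and 7 reads in unstimulated control cells, 6 and 11 in unstimulated KD cells, 3 and 14 in TNF-α-stimulated control cells and 19 and 15 in TNF-α-stimulated KD cells. These are 0.0645 and 0.195, 0.146 and 0.275, 0.0911 and 0.439, and 0.531 and 0.459 FPKM in the same order. The control libraries overlapped with and without TNF-α, with a ratio of 2.04 and a counting interval of 0.821 to 4.96. In KD cells the ratio was 2.35 (1.29 to 4.51) without overlap. The antisense gene AC073072.1, which overlaps IL6, had 62 reads over the 8 libraries, and without a stated strand of counting the reads of the pair cannot be told apart. The genes most like IL6 were SLC22A4, BTBD9 and BECN1, with correlations of 0.9534, 0.9381 and 0.9342.

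The genes of the 2 interleukin-1 cytokines, which lie 45161 bases apart on chromosome 2, were also low. IL1A (ENSG00000115008, chr2:112773915-112784590, minus strand) encodes interleukin-1α, which is active before processing. It was at 0.0942 and 0.109 FPKM in unstimulated control cells and 0.261 and 0.463 FPKM in unstimulated KD cells, on 3 to 19 reads. With TNF-α it stood at 1.33 and 1.31 FPKM in control cells and 2.04 and 2.23 FPKM in KD cells, on 43 to 75 reads. The 4 groups did not overlap, and the ratio with TNF-α was 13.0 in control cells (6.03 to 33.2) and 5.90 in KD cells (3.97 to 9.07). C3orf52, NEDD4L and POU2F2 were most like it, with correlations of 0.9956, 0.9951 and 0.9946.

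IL1B (ENSG00000125538, chr2:112829751-112836903, minus strand) encodes interleukin-1β, whose precursor is cut by caspase-1. It had 2 reads and 1 read in unstimulated control cells and 13 and 10 in unstimulated KD cells. It had 13 and 9 reads in TNF-α-stimulated control cells and 48 and 43 in TNF-α-stimulated KD cells. The levels were 0.0431 and 0.0187, 0.212 and 0.167, 0.264 and 0.189, and 0.897 and 0.879 FPKM in the same order. The libraries of unstimulated KD cells thus overlapped those of TNF-α-stimulated control cells, and both TNF-α-stimulated KD libraries lay above all others. With 3 reads in unstimulated control cells, the ratio with TNF-α there was 7.33 with an interval of 2.27 to 39.4, and in KD cells it was 4.68 (2.94 to 7.75). FGF1, AREG and AC073896.2 were most like it, with correlations of 0.9862, 0.9835 and 0.9819.

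IL32 (ENSG00000008517, chr16:3065297-3082192, plus strand), the gene of the proinflammatory cytokine interleukin-32, was at 16.4 and 10.7 FPKM in unstimulated control cells and 5.75 and 4.46 FPKM in unstimulated KD cells. With TNF-α it stood at 72.9 and 79.6 FPKM in control cells and 68.7 and 72.7 FPKM in KD cells. The unstimulated control libraries differed widely from each other, both KD libraries lay below them, and after TNF-α the groups almost touched. The ratio with TNF-α was 5.64 in control cells (5.40 to 6.06) and 13.8 in KD cells (12.7 to 15). Between single libraries it ran from 4.46 to 7.44 in control cells and from 11.9 to 16.3 in KD cells. SLC2A6, TRIM47 and RELB were most like it, with correlations of 0.9973, 0.9967 and 0.9967. RELB encodes an NF-κB subunit.

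IL7R (ENSG00000168685, chr5:35852695-35879603, plus strand), the only receptor among the 10, encodes the chain that binds interleukin-7. It was at 10.6 and 13.4 FPKM in unstimulated control cells, 18.7 and 21.1 FPKM in unstimulated KD cells, 26.3 and 23.5 FPKM in TNF-α-stimulated control cells and 24.7 and 22.8 FPKM in TNF-α-stimulated KD cells. Both unstimulated KD libraries lay above both unstimulated control libraries, and the stimulated control and KD libraries overlapped. The ratio with TNF-α was 2.08 in control cells (1.96 to 2.17) and 1.19 in KD cells (1.15 to 1.25). Between single libraries it ran from 1.76 to 2.48 in control cells and from 1.08 to 1.32 in KD cells. TTC27 and CLUHP3 were among the genes most like it, with correlations of 0.9893 and 0.9762. All these correlations are descriptions over 8 libraries that share the same 4 groups.

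In control cells, TNF-α raised 7 of the 9 tested genes. All 9 differences were above 0, and 3.1% of all 16528 genes were called higher and 1.14% lower. CSF2 differed by 5.13 ± 0.09 (SE, adjusted p = 2.75e-07), IL32 by 2.44 ± 0.18 (adjusted p = 0.000313), CSF1 by 1.73 ± 0.08 (adjusted p = 3.46e-05) and LIF by 1.38 ± 0.09 (adjusted p = 0.000177). IL1A differed by 1.08 ± 0.09 (adjusted p = 0.000751), IL7R by 1.00 ± 0.12 (adjusted p = 0.004) and IL11 by 0.93 ± 0.09 (adjusted p = 0.00126). IL1B, at 0.25 ± 0.06, and IL6, at 0.15 ± 0.13, did not pass the test (adjusted p = 0.0672 and 0.615, limma). IL1B was called with a pseudocount of 0.1 (1.31, adjusted p = 0.0222) and after the correction for GC content and length (0.29, adjusted p = 0.0452), and IL6 was at -0.048 without stimulated control replicate 2. The median difference of the 9 was 1.08, against 0.01 over all genes. This comparison does not involve the unstimulated KD libraries, and without them in the fit the same 7 genes were called.

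In KD cells, TNF-α also raised 7 of the 9, beside 31.1% of all genes called higher and 31.4% called lower. The median difference of the 9 was 2.12, against -0.01 over all genes. The unstimulated KD libraries of this comparison are those with the higher mitochondrial share, the lower GC content and the larger number of genes with a read. The 7 were CSF2 (5.36 ± 0.09), IL32 (3.56 ± 0.18), LIF (2.20 ± 0.09), IL11 (2.17 ± 0.09), CSF1 (2.12 ± 0.08), IL1A (1.21 ± 0.09) and IL1B (0.67 ± 0.06), with adjusted p between 1.65e-07 and 9.59e-05 in limma. IL6, at 0.31 ± 0.13, and IL7R, at 0.25 ± 0.12, did not pass (adjusted p = 0.0716 and 0.116, limma). Both passed with only the libraries compared (adjusted p = 0.0153 and 0.036). IL6 also passed with a replicate block (adjusted p = 0.0395) and without either stimulated control library (0.0201 and 0.0188), and IL7R without either unstimulated control library (0.0393 and 0.0396). After the correction for GC content and length all 9 were called. IL6 was then at 0.45 ± 0.15 and IL7R at 0.71 ± 0.09 (adjusted p = 0.0311 and 0.000593). IL6 rests on 17 and 34 reads here, a low level that the correction does not take into account. Of the other 7, IL32 (2.99), IL11 (1.70), LIF (1.70), CSF1 (1.59) and CSF2 (5.21) were lower than uncorrected, and IL1A (1.71) and IL1B (0.71) higher. The part of the RNA composition of these libraries in the uncorrected differences was not tested. Under scaling to total reads, where the median of all genes was -0.19, IL7R was at -0.12 (adjusted p = 0.484).

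**Figure D2:**
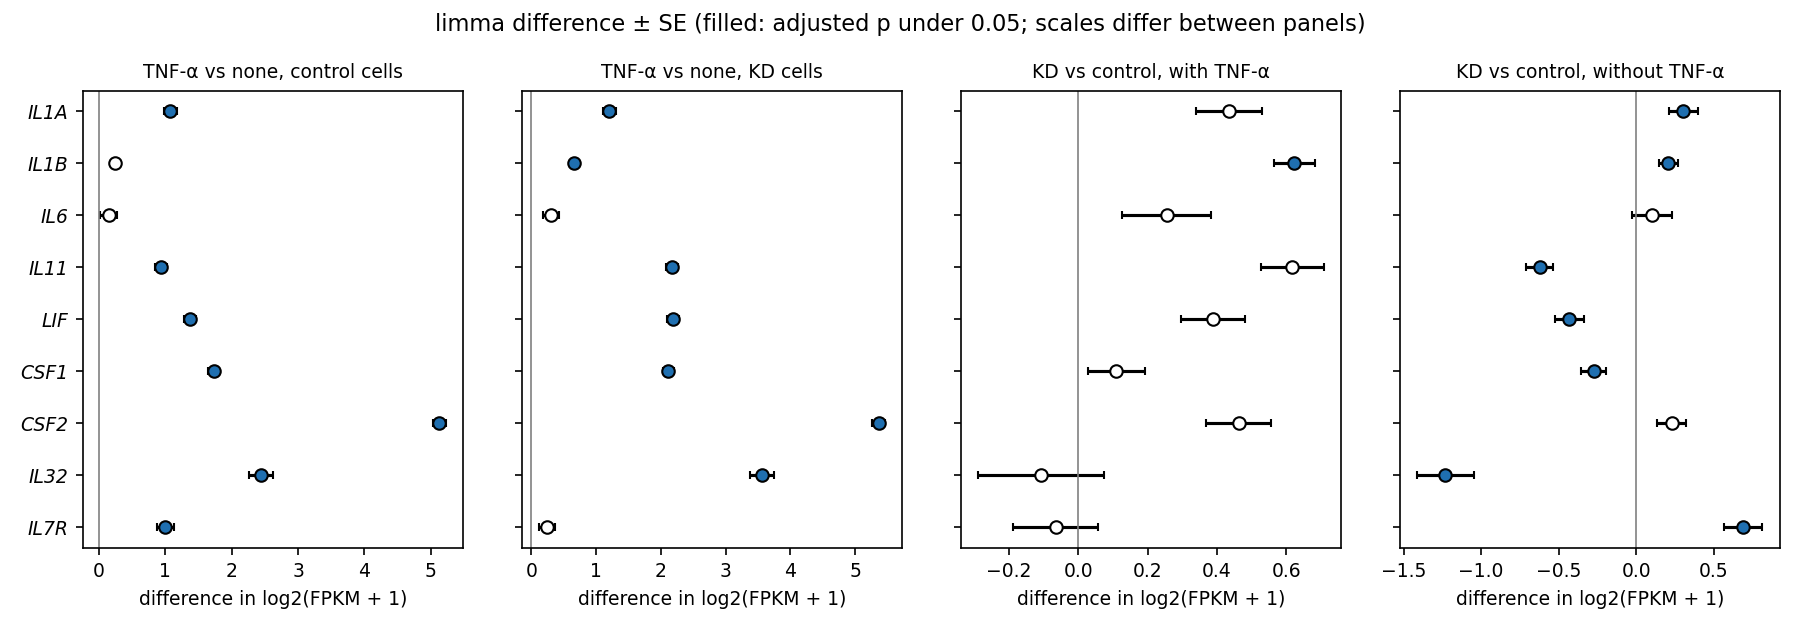
Difference in log2(FPKM + 1) (horizontal axis, own scale in each panel) with its standard error for the 9 tested genes in 4 comparisons of groups of 2 libraries. Filled points have an adjusted p under 0.05 in limma, which holds for 7 genes with TNF-α in control cells, 7 in KD cells, 1 between KD and control cells with TNF-α and 7 without.

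With TNF-α, 1 of the 9 genes, IL1B, was called between KD and control cells. IL1B rose by 0.62 ± 0.06 (adjusted p = 0.0162, limma), with a ratio of means of 3.93 and a counting interval of 2.44 to 6.56. Over all genes 0.0605% were called higher and 0.0545% lower. The call of IL1B was lost in 5 of 10 other settings, and when any single library other than an unstimulated control library was left out. Over all of these the adjusted p lay between 0.00721 and 0.21 and the difference between 0.58 and 1.94. IL1A, IL1B and IL6 are among the genes that the study itself singled out from these libraries, so their direction here is not independent evidence.

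IL11 came next, at 0.62 ± 0.09 (adjusted p = 0.0816), a ratio of 1.55 with a counting interval of 1.48 to 1.63 on 2510 and 4115 reads. CSF2 was at 0.46 ± 0.09 (adjusted p = 0.17, ratio 1.38), IL1A at 0.43 ± 0.09 (adjusted p = 0.204, ratio 1.62) and LIF at 0.39 ± 0.09 (adjusted p = 0.233, ratio 1.31). IL6 was at 0.25 ± 0.13 and CSF1 at 0.11 ± 0.08, and IL32 and IL7R had differences of -0.11 ± 0.18 and -0.07 ± 0.12 (adjusted p between 0.698 and 0.971, limma). At an unadjusted p under 0.05 there were 5 genes of 9, beside 8.16% of all genes. In 7 of the 9 the lower KD library exceeded the higher control library, which held for 23.9% of all genes, and in 1, IL32, both lay below, as for 22.3% of all genes. IL7R overlapped. Without replicate 1 or 2 of the stimulated control cells, IL6 was at 0.0549 or 0.454, CSF1 at 0.0322 or 0.188, IL32 at -0.169 or -0.0452 and IL7R at 0.0127 or -0.144. The median difference was 0.39, against 0.00 over all genes. IL11 passed the test in 4 of 10 other settings, at an adjusted p of 0.0118 after the correction for GC content and length, and without either unstimulated control library, with adjusted p between 0.00943 and 0.579 over all of them.

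**Figure D3:**
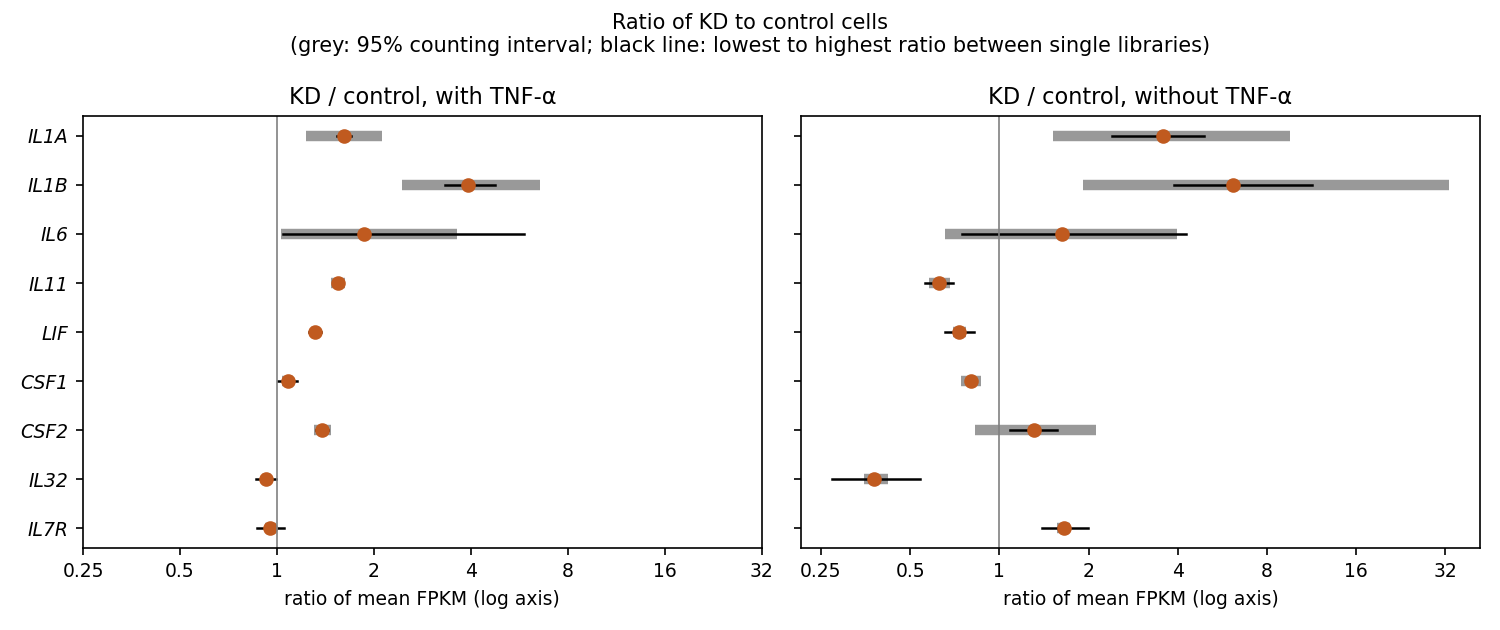
Ratio of mean FPKM of KD to control cells (horizontal axis, log scale) for the 9 tested genes with TNF-α (left) and without (right). Points are ratios of the means of 2 libraries, grey bars 95% counting intervals, and black lines run from the lowest to the highest ratio between single libraries. With TNF-α the points lie between 0.927 for IL32 and 3.93 for IL1B, and without TNF-α between 0.377 for IL32 and 6.14 for IL1B.

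Stretches of 3′ UTR are shown here for the 4 genes that hold the AU-rich nonamer TTATTTATT, a pattern looked for with earlier results known, because AU-rich elements bear on the decay of cytokine messengers. In the longest 3′ UTR among each gene's coding transcripts in release 29 of GENCODE, on the strand of the transcript, IL11 held 6 overlapping or separate copies, CSF2 3, IL1B 2 and LIF 2. The other 6 genes held none, and 9.52% of 13429 tested genes with a 3′ UTR held at least 1. Of the shorter pentamer ATTTA, CSF2 held 25.2 per kilobase, IL6 14, IL1B 9.84, IL11 5.56 and LIF 2.18, against a median of 1.64 over all these genes, and IL32 held none. A stretch of 30 bases of each is printed 5′ to 3′ with the nonamers in capitals.
CSF2: atttttaaaatatTTATTTATTTATTTATT
IL11: ccaaagccagatcTTATTTATTTATTTATT
IL1B: agcaaccgcttccctatTTATTTATTTATT
LIF: aagagagatgtctccgggcccTTATTTATT
Between KD and control cells with TNF-α, the ratios of means of these 4 genes were 1.38, 1.55, 3.93 and 1.31. IL6, at 1.87, and IL1A, at 1.62, hold 6 and 5 copies of the pentamer (14 and 4.34 per kilobase) and no nonamer. IL7R, at 0.953, holds 12 copies of the pentamer (3.85 per kilobase), CSF1, at 1.08, holds 4 (1.86 per kilobase), and IL32, at 0.927, holds none. The 3′ UTRs differ in length, from 318 bases in CSF2 to 3204 in LIF. The stability of these RNAs was not measured.

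Without TNF-α, 7 of the 9 genes differed between KD and control cells, in both directions, where 29.8% of all genes were called higher and 30.2% lower. IL7R was higher by 0.69 ± 0.12 (adjusted p = 0.00191), IL1A by 0.30 ± 0.09 (adjusted p = 0.0249) and IL1B by 0.21 ± 0.06 (adjusted p = 0.0185). IL32 fell by 1.23 ± 0.18 (adjusted p = 0.000813), IL11 by 0.62 ± 0.09 (adjusted p = 0.000729), LIF by 0.43 ± 0.09 (adjusted p = 0.00462) and CSF1 by 0.28 ± 0.08 (adjusted p = 0.0199, limma). CSF2, at 0.23 ± 0.09, and IL6, at 0.10 ± 0.13, did not pass. With each library left out CSF2 lay between 0.129 and 0.329 and IL6 between 0.0164 and 0.184. CSF2 was called without replicate 1 of unstimulated control or of unstimulated KD cells (adjusted p = 0.0423 and 0.0353), with a pseudocount of 0.1 (0.0334) and under total reads (0.00599). The median difference was 0.10, against 0.00 over all genes. Scaling to total reads moved the median of all genes in this comparison to 0.13, and LIF (-0.16) and CSF1 (-0.03) then did not pass (adjusted p = 0.123 and 0.766). CSF1 was also lost with only the libraries compared (adjusted p = 0.102) and without either unstimulated KD library (up to 0.0953). Without the filter on low reads, IL1A and IL1B were not called (adjusted p = 0.105 and 0.0685). IL1A was also lost without either unstimulated control library or without unstimulated KD replicate 2, where it was at 0.20 (adjusted p up to 0.179), and IL1B without unstimulated control replicate 2 or KD replicate 1 (up to 0.0949).

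The genes called higher and those called lower differed in GC content. The 3 that were called higher, IL1A, IL7R and IL1B, have 39.1%, 41.2% and 45.7% GC in their longest transcript, and the 4 that were called lower, IL11, LIF, IL32 and CSF1, have between 55.6% and 59.5%. Over 16520 tested genes, the Spearman correlation of this difference with GC content was -0.685, and it was 0.0345 for KD against control cells with TNF-α. Genes are not independent replicates, and this is a description. After the correction for GC content and length, IL32 stayed lower, at -0.69 ± 0.13 (adjusted p = 0.00389), as did IL11, at -0.17 ± 0.06 (adjusted p = 0.0446), and IL1B stayed higher, at 0.19 ± 0.07 (adjusted p = 0.0382). CSF2 became called, at 0.41 ± 0.09 (adjusted p = 0.00635). IL7R, at 0.20, LIF, at 0.02, CSF1, at 0.17, and IL1A, at -0.15, were no longer called, the last 3 with the opposite sign. For IL1A the ratio of KD to control cells was 3.57, on 30 and 7 reads, a low level that the correction does not take into account. The part of the RNA composition of these libraries in the uncorrected differences was not tested.

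**Figure D4:**
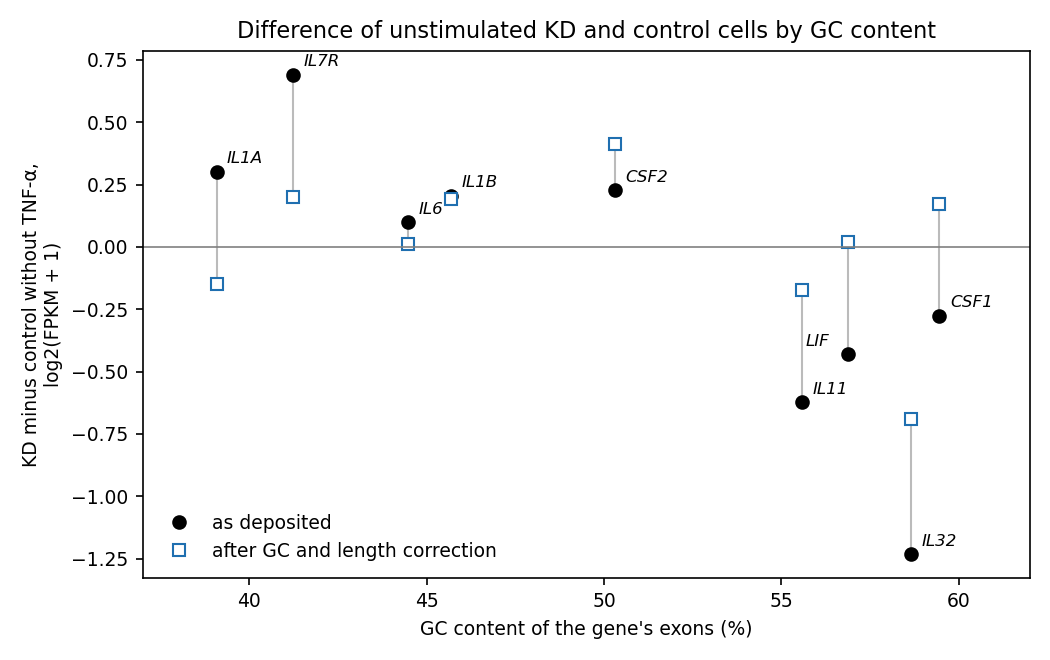
Difference of unstimulated KD and control cells in log2(FPKM + 1) (vertical axis) against the GC content of each gene's longest transcript in percent (horizontal axis, labelled there as exons) for the 9 tested genes, as deposited (black circles) and after the correction for GC content and length (open squares), each pair joined by a line. The uncorrected differences run from 0.69 for IL7R to -1.23 for IL32, and the corrected ones from 0.41 for CSF2 to -0.69 for IL32.

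The interaction asks whether the difference between KD and control cells itself changed with TNF-α. It passed the test in 6 of the 9 genes, 5 upward and 1 downward, beside 23.8% of all genes upward and 22.3% downward. It rests on the unstimulated KD libraries, which stand apart in mitochondrial share, GC content and genes with a read. IL11 changed by 1.24 ± 0.13 (adjusted p = 0.00118), from -0.62 without TNF-α to 0.62 with it, and LIF by 0.82 ± 0.13 (adjusted p = 0.00279), from -0.43 to 0.39. For both, the difference with TNF-α was not itself called (adjusted p = 0.0816 and 0.233), and for LIF that without TNF-α was 0.02 after the correction for GC content and length. IL32 changed by 1.12 ± 0.26 (adjusted p = 0.00972) and CSF1 by 0.39 ± 0.12 (adjusted p = 0.0276), from lower without TNF-α to a difference near 0 with it. IL1B changed by 0.42 ± 0.08 (adjusted p = 0.00628), and IL7R by -0.76 ± 0.17 (adjusted p = 0.00978, limma), from higher to near 0. After the correction for GC content and length, IL11 (0.79), LIF (0.36), IL32 (0.59) and IL1B (0.42) were still called and CSF1 (-0.07) and IL7R (-0.26) were not, while IL1A (0.60, adjusted p = 0.013) was. Uncorrected, the interaction of IL1A was 0.13 ± 0.13 (adjusted p = 0.451), it was -0.51 with a pseudocount of 0.1 and -0.944 in voom, and the ratio of KD to control cells was 3.57 without TNF-α (counting interval 1.52 to 9.54) and 1.62 with it (1.23 to 2.13), so its sign depends on the scale and it was not called without the correction. In voom, fitted to the recovered reads on the log2 CPM scale with the adjusted library sizes, IL1B had an interaction of -0.42 (adjusted p = 0.701), and with a pseudocount of 0.1 it was not called (adjusted p = 0.288). The ratio of KD to control cells for IL1B was 3.93 with TNF-α and 6.14 without it, the latter on 3 reads in control cells, with a counting interval of 1.91 to 32.9 and 3.88 to 11.4 between single libraries. Whether this ratio changed with TNF-α is thus not established, and only the difference on the log2(FPKM + 1) scale was called. CSF1 was not called under scaling to total reads (0.12, adjusted p = 0.442), or without either unstimulated KD library, stimulated control replicate 1 or either stimulated KD library (adjusted p up to 0.113).

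The receptors and partners of these cytokines were described by 10 lists of 122 genes, of which 78 passed the filter. With TNF-α in control cells, 17 of the 78 rose and 1 fell, with a median difference of 0.14, where 3.1% of all genes were called higher and 1.14% lower. Between KD and control cells with TNF-α no list gene was called by limma, with 15 at an unadjusted p under 0.05 (8.16% of all genes) and 1, NLRP3, called by a voom fit of the recovered reads.

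Of the interleukin-1 family, 1 of 3 tested ligands and antagonists rose with TNF-α in control cells. IL1RN, the receptor antagonist, had no read in either unstimulated control library and was at 0.772 and 0.617 FPKM after TNF-α, at least 24.4-fold higher against a floor of 3 reads over the group (adjusted p = 0.004, limma). Without the filter on low reads it was not called (adjusted p = 0.0517). It was at 1.64 and 1.22 FPKM in TNF-α-stimulated KD cells. IL18, at 45.6 to 62.7 FPKM in the 8 libraries, was the most abundant of the 3, and IL18BP, its binding protein, lay between 1.00 and 2.09 FPKM, highest in unstimulated KD cells. Of 10 receptors and adaptors 1 rose, IRAK2, a kinase of the receptor complex, by 2.35 ± 0.10 (adjusted p = 2.61e-05), from 0.747 and 0.896 FPKM to 8.17 and 8.40 FPKM. The related kinase gene IRAK1 was at 134 and 113 FPKM in unstimulated KD cells and at 265 to 349 FPKM elsewhere. The adaptor gene TOLLIP was at 5.22 and 5.24 FPKM in unstimulated KD cells and at 10.5 to 12.7 FPKM elsewhere, and the adaptor gene MYD88 was at 4.52 to 6.76 FPKM. Of 8 genes of interleukin-1 processing 1 rose, NLRP3, the inflammasome sensor, by 1.31 ± 0.11 (adjusted p = 0.000642), from 1.02 and 0.826 FPKM to 4.02 and 3.56 FPKM. In TNF-α-stimulated KD cells NLRP3 was at 8.03 and 7.34 FPKM, a difference from control cells of 0.86 ± 0.11 that did not pass the test (adjusted p = 0.0529, limma). HAX1, GSDMD and CAPN2, the other named genes of this list, were between 14.8 and 75.8 FPKM.

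None of 4 tested gp130 ligands outside the 10 genes was called with TNF-α in control cells by limma, by voom or at an unadjusted p under 0.05, and EBI3, CLCF1 and CTF1 lay between 3.24 and 21.1 FPKM, each lowest in unstimulated KD cells. Of 8 gp130 family receptors 2 rose, IL27RA by 1.07 ± 0.09 (adjusted p = 0.000689) and IL6ST, which encodes gp130, by 0.95 ± 0.17 (adjusted p = 0.0262). The call of IL6ST was lost in 3 of 11 other settings and when any TNF-α-stimulated library was left out (adjusted p up to 0.153). IL6ST was at 16.3 and 19.7 FPKM in unstimulated KD cells, against 2.24 to 6.78 FPKM in the other 6 libraries, and has 36.6% GC. OSMR lay between 10.2 and 20.3 FPKM and IL31RA between 2.06 and 6.44 FPKM, the latter highest in both unstimulated KD libraries. Of 15 JAK-STAT genes 2 rose, STAT5A by 2.03 ± 0.10 (adjusted p = 3.46e-05) and TYK2 by 0.44 ± 0.08 (adjusted p = 0.0309). SOCS1, an inhibitor of JAK kinases, fell by 1.04 ± 0.18 (adjusted p = 0.0198, limma), from 9.10 and 6.66 FPKM to 3.64 and 2.92 FPKM. This call was lost in 2 of 11 other settings and without unstimulated control replicate 1 or either stimulated control library (adjusted p up to 0.146). PTPN11, the most abundant of the rest, was at 36.7 and 40.5 FPKM in unstimulated KD cells and at 11.6 to 20.2 FPKM elsewhere.

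Of 8 tested ligands and receptors of the common gamma chain family, to which IL7R belongs, 5 rose with TNF-α in control cells. IL4R rose by 1.04 ± 0.13 (adjusted p = 0.004), IL15RA by 0.69 ± 0.11 (adjusted p = 0.0166), IL15 by 0.51 ± 0.11 (adjusted p = 0.0463) and IL2RB by 0.42 ± 0.08 (adjusted p = 0.0367, limma). IL4R went from 4.32 and 4.96 FPKM to 10.1 and 11 FPKM, and to 14.5 and 13.3 FPKM in TNF-α-stimulated KD cells. Without stimulated control replicate 2, neither IL4R nor IL15RA was called (adjusted p = 0.0515 and 0.118), and IL15RA was also lost in 2 of 11 other settings. Of 5 tested receptors and relatives of the colony-stimulating factors 1 rose, IL34, which encodes another ligand of the CSF1 receptor, by 1.14 ± 0.15 (adjusted p = 0.00681, and 0.0689 without the filter on low reads). KITLG, CSF2RA and IL3RA lay between 0.555 and 5.83 FPKM, with KITLG at 5.54 and 5.83 FPKM in unstimulated KD cells and at most 2.58 FPKM elsewhere. Of 5 other interleukins 1 rose, IL23A, by 2.04 ± 0.18 (adjusted p = 0.000803), from 0.112 and 0.535 FPKM to 3.92 and 4.86 FPKM, while IL17B, IL12A and IL24 stayed at or below 2.53 FPKM. The calls of IL2RB, IL15 and TYK2 were lost in 8, 7 and 6 of 11 other settings, and when most single libraries were left out (adjusted p up to 0.217, 0.232 and 0.227).

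Of 12 genes of AU-rich element binding proteins and RNases, 3 rose with TNF-α in control cells. They were ZC3H12A, the RNase Regnase-1 that degrades IL6 messenger, by 1.69 ± 0.14 (adjusted p = 0.000668), ZFP36L1, a decay-promoting zinc finger protein, by 1.06 ± 0.10 (adjusted p = 0.00123), and ARID5A, which stabilises IL6 messenger, by 0.65 ± 0.12 (adjusted p = 0.0274, limma). The call of ARID5A was lost in 2 of 11 other settings and when any TNF-α-stimulated library was left out (adjusted p up to 0.192). ZFP36L1 was at 34.6 and 42.2 FPKM before and 80.4 and 80.8 FPKM after TNF-α in control cells, and at 87.2 and 88.3 FPKM in TNF-α-stimulated KD cells. ZC3H12A was at 16 and 18.3 FPKM in TNF-α-stimulated control cells and 20.0 and 19.9 FPKM in TNF-α-stimulated KD cells. KHSRP, the most abundant of the rest, was at 100 and 89.4 FPKM in unstimulated KD cells and at 146 to 193 FPKM elsewhere.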

How the data were processed

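Bulk RNA-seq was made from 8 libraries of U2OS cells, 2 in each of 4 groups taken from the labels. RNA was extracted with Trizol and Novogene sequenced it on Illumina's NovaSeq. The submitters' processing notes name CASAVA 1.8, fastp, HISAT2 2.0.5, featureCounts 1.5.0-p3 and DESeq2 1.20.0, and the builds GRCh38 and hg38. The strand of counting is not given in the sources used here. The authors deposited FPKM values, already scaled by a size factor over all libraries, with no count. Each value times its gene's length was a whole multiple of a library constant for 100% of values (tolerance 0.05), which gave back whole reads. All 58735 identifiers, positions and exon lengths match GENCODE release 29.

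The deposited unit being FPKM, the paper's count test was not run here, and the recovered reads entered a voom fit as an alternative. log2(FPKM + 1) was fitted with limma 3.58.1 in R 4.3.3, with a mean per group, variances moderated with a trend and 4 residual degrees of freedom. Genes had at least 10 reads at median depth in at least 2 libraries and 15 in all. The 5 comparisons were adjusted over 16528 genes each. Intervals at 95% and the floor of 3 reads cover counting error only. The mean chi-squared per degree of freedom between replicates, 1 under counting error alone, was 30.1 in unstimulated control and 7.23 in unstimulated KD cells. With TNF-α it was 4.31 in control and 2.45 in KD cells. Alternatives were a pseudocount of 0.1, upper-quartile or total-read scaling, no filter, a mean of 1 CPM, only the libraries compared, no unstimulated KD libraries, a replicate block, voom, each library left out, and a correction by splines with 5 degrees of freedom on GC content and length. A crossed replicate block was added after seeing the data. The scripts were tested on simulated data.

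Named are all 10 genes, WSB2, up to 4 genes per list (the largest differences with TNF-α in control cells among those called, then the most abundant) and the 3 genes most correlated with each tested member. A few genes that this rule would name are not reported here. The members and lists were chosen with earlier results of these data known. Python 3.11.15, numpy 2.4.6, pandas 2.3.3, scipy 1.17.1 and matplotlib 3.10.9 were used.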

Additional observations from a re-analysis of the deposited data

Results flagged for a closer look

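For 6 of the 9 tested genes the interaction of KD and TNF-α passed the test, 5 upward and 1 downward. Over all genes it passed in 23.8% upward and 22.3% downward. In limma, the difference with TNF-α minus that without was 1.24 for IL11, 1.12 for IL32, 0.82 for LIF, 0.42 for IL1B, 0.39 for CSF1 and -0.76 for IL7R on the log2(FPKM + 1) scale. After the correction for GC content and length, CSF1 (-0.07) and IL7R (-0.26) were not called. IL11 (0.79), IL32 (0.59), LIF (0.36) and IL1B (0.42) still were, and IL1A (0.60) became called. Without the correction, the interaction of IL1A was -0.51 with a pseudocount of 0.1 and -0.944 in voom. The call of CSF1 was lost in 5 of 8 fits that left out 1 library. For IL1B the ratio of KD to control cells was 3.93 with TNF-α and 6.14 without it, with a counting interval of 1.91 to 32.9 on 3 reads in control cells, so its positive value was called on the log2(FPKM + 1) scale and a change of the ratio is not established. Each rests on the 2 unstimulated KD libraries, which stand apart in mitochondrial share, GC content and number of genes with a read, and groups of 2 allow no test of outlying libraries.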

How the results depend on the processing

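For KD against control cells with TNF-α, 1 member was called. The count was 0 with a pseudocount of 0.1, without the filter or without both unstimulated KD libraries, 2 under scaling to total reads or the correction for GC content and length, and 0 to 2 when each library was left out. The correction took the 7 members called without TNF-α to 4. For the other comparisons the count of members called stayed within 1.5 times that reported in every setting run.

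Signs turned for IL1A (-0.147), LIF (0.0219) and CSF1 (0.174) in KD against control cells without TNF-α, and for CSF1 in the interaction (-0.0658), after the correction. They turned for IL1A in the interaction with a pseudocount of 0.1 (-0.51) and in voom (-0.94), for IL1B in the interaction in voom (-0.42), and for IL7R with TNF-α in KD cells under total reads (-0.12). With each library left out, the difference of IL6 with TNF-α in control cells lay between -0.048 and 0.351, its interaction between -0.0452 and 0.354, and that of IL7R between KD and control cells with TNF-α between -0.144 and 0.0127. The cause was not tested.

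Over all genes, 10 were called higher and 9 lower in KD cells with TNF-α, with totals of 7 to 66 in other settings and 0 to 98 with each library left out. For TNF-α in control cells the total of 701 ranged from 238 to 912, and from 229 to 2130. The highest of the latter totals came without unstimulated control replicate 2. Scaling to total reads gave 6515 higher and 3456 lower for KD without TNF-α, 3309 and 7240 for TNF-α in KD cells, and 2440 and 4966 for the interaction, against 4932 and 4996, 5141 and 5187, and 3935 and 3679. Replicate numbers did not pair the libraries (correlations of replicate differences from -0.19 to 0.35). With them as a block, 1 member was called in KD cells with TNF-α, 7 without it, 7 with TNF-α in control cells, 8 in KD cells and 6 in the interaction, and IL6 with TNF-α in KD cells became called (adjusted p = 0.0395). The crossed block, added after seeing the data, called 420 genes higher and 171 lower with TNF-α in control cells. The low members IL1A, IL1B, IL6 and CSF3 rest on few reads, 275, 139, 77 and 3 over the 8 libraries.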
